A study of Mus musculus with 16 samples.

Results

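Rpl22, the ribosomal protein that carries the affinity tag in RiboTag mice, and its paralog Rpl22l1 were followed on microarrays of mouse polysome RNA. Every probe whose accession maps to either gene was taken, which gave 3 probes of the 55681 on the array, 2 for Rpl22 and 1 for Rpl22l1, or 2 of the 20145 genes named on it. RNA associated with polysomes was hybridised on 16 arrays, 4 for each of 4 groups. The groups were podocytes of uninjured Nphs1-RiboTag mice, podocytes of Nphs1-RiboTag-NEP25 mice 4 days and 7 days after the immunotoxin LMB2, and glomerular cells of uninjured Nphs1-RiboTag mice. Podocyte polysomes were precipitated with an antibody to the HA tag, and glomerular polysomes were not precipitated (per the submitters' protocols). The injured mice received LMB2 by 1 tail vein injection, 0.625 ng per g body weight. All mice carried the RiboTag allele and Nphs1-Cre on a C57BL/6N background.

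In the RiboTag allele the last coding exon of Rpl22 is flanked by loxP sites and followed by a copy that encodes the HA epitope, and Cre exchanges the first for the second. Nphs1-Cre acts in podocytes, the epithelial cells that wrap the glomerular capillaries, so in glomerular RNA the exchange is limited to the podocyte part of the cells. The NEP25 transgene places human CD25 on podocytes. LMB2 binds CD25 and delivers a bacterial toxin that stops protein synthesis. The uninjured mice are described without NEP25, and no group of NEP25 mice without LMB2 or of LMB2 without NEP25 was analysed here. The ages, the zygosity of the RiboTag allele and whether each array holds a separate animal are not given, so p-values measure the spread between these samples.

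Rpl22 is an RNA-binding protein of the large ribosomal subunit of eukaryotes that lies at the outer surface of the ribosome. Mice survive without it, unlike most ribosomal proteins. Rpl22l1 is a close paralog that can take its place in the ribosome. In mouse cells Rpl22 protein lowers the amount of Rpl22l1 mRNA by binding it, and Rpl22l1 rises where Rpl22 is lost.

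Both Rpl22 probes, A_52_P391718 and A_55_P2015989, are annotated to the same RefSeq transcript of Rpl22, a gene at chr4:152324436-152334082 of GRCm38.p6 with 5 transcripts in RefSeq. The Rpl22l1 probe, A_55_P2159026, is annotated to a transcript of Rpl22l1 at chr3:28805508-28807424, which has 4. RefSeq also lists 2 pseudogenes of Rpl22, Gm13196 on chromosome 2 and Rpl22-ps1 on chromosome X, to which no probe was assigned. The sequences and positions of the probes were not used here. Where a probe lies relative to the exchanged exon, which transcripts it detects, and whether it also binds a pseudogene were therefore not examined. The start regions of both genes follow to fix which loci are meant and to show how they differ, each from 100 bases before a RefSeq start to 20 after it, plus strand, GRCm38.p6. They lie at chr4:152324336-152324455 and chr4:152325626-152325745 for 2 starts of Rpl22, and at chr3:28805408-28805527 for Rpl22l1. Capitals mark the letters TATAAA together with its overlapping reverse complement TTTATA, and everything else is in lower case.
Rpl22 first start: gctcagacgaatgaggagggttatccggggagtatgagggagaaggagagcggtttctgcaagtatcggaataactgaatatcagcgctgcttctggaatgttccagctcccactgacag
Rpl22 second start: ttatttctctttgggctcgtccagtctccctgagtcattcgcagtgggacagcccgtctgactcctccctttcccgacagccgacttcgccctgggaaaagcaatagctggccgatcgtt
Rpl22l1 start: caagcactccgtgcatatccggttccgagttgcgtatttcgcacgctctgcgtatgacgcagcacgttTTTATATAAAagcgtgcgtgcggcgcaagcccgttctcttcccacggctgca
TATAAA begins 28 bases before the start of Rpl22l1, and neither printed Rpl22 stretch holds it on either strand. In the full window of 300 bases, the first Rpl22 start has 1 match on the reverse strand, outside the stretch printed. Of 32851 RefSeq start windows of 300 bases, 13.6% hold TATAAA on at least 1 strand, and 1.99% hold it on the gene's strand between 40 and 16 bases before the start. A match in letters is not a measured binding site, and none of the values that follow bears on it.

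Levels are log2 processed intensities with the array's own 75th percentile subtracted, so a level of 0 equals the brightness of the probe at that percentile. Of all spots on an array 49.3% to 57.5% were well above background, and no spot was saturated. Of the 55681 probes, 29685 exceeded background clearly on all 4 arrays of some group and were tested together in limma. All 3 probes of Rpl22 and Rpl22l1 passed, and each was well above background on 16 of 16 arrays. The raw signal was 31.3 to 132 times the local background at A_52_P391718, 96.1 to 384 times at A_55_P2015989 and 430 to 926 times at Rpl22l1. The mean level of 6 podocyte markers over an array ran from 7.90 to 8.02 in normal podocytes, 7.46 to 7.79 at day 4, 6.78 to 6.96 at day 7 and 5.73 to 6.16 in glomerular RNA. For 6 endothelial markers it ran from 0.31 to 1.17, -0.39 to 0.62, 0.21 to 0.75 and 4.65 to 4.97 in the same order of groups. Every marker of both lists was well above background on at least 1 array of each group. Both uninjured groups lay on slide 1 and both injured groups on slide 2, each slide in its own scan.

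The 2 Rpl22 probes differed in opposite directions between podocyte and glomerular RNA of uninjured mice. This comparison sets precipitated tagged ribosomes beside all glomerular ribosomes without precipitation, so cell type and precipitation cannot be told apart in it. At A_52_P391718 the levels were 3.41, 2.98, 3.19 and 2.97 in podocytes, against 1.97, 1.50, 1.68 and 1.42 in glomerular RNA. Every podocyte array was above every glomerular array, with means of 3.14 ± 0.21 in podocytes and 1.64 ± 0.24 in glomerular RNA (SD, n = 4 each). The difference was 2.82-fold (log2 1.50 ± 0.15, SE, limma adjusted p = 4.81e-07). At A_55_P2015989 the levels were 3.94, 3.62, 3.61 and 3.58 in podocytes, against 5.27, 4.87, 5.24 and 4.96 in glomerular RNA. Here every podocyte array was below every glomerular array, with means of 3.69 ± 0.17 in podocytes and 5.08 ± 0.20 in glomerular RNA. The podocyte level was 2.63-fold lower (log2 -1.39 ± 0.13, limma adjusted p = 2.72e-07).

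Rpl22l1 showed no difference beyond the spread in that comparison. Its levels were 6.32, 5.76, 6.14 and 5.90 in podocytes, against 6.15, 5.78, 6.19 and 5.86 in glomerular RNA. The groups lay on top of each other, with means of 6.03 ± 0.25 in podocytes and 5.99 ± 0.21 in glomerular RNA. The log2 difference was 0.03 ± 0.16, with a 95% interval of -0.30 to 0.37 and a limma adjusted p of 0.855. Its sign turned to -0.22 under quantile normalization (adjusted p = 0.0743), and scaling on ribosomal protein probes gave a call at 0.35 (adjusted p = 0.00332).

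Being called was common in this comparison: 2 of the 3 probes were called, beside 71.8% of all probes tested, 46.8% higher and 25.0% lower. Groups that did not overlap were also common, at 65.2% of probes. A difference at least as large in size as that of A_52_P391718 was found at 21.0% of the probes, and one at least as large as that of A_55_P2015989 at 22.8%. The median log2 difference over all probes was 0.32. In bulk RNA, fewer cells of a type and less RNA per cell cannot be told apart. Endothelial markers and podocyte markers moved between these groups in opposite directions, 6 of 6 lower and 6 of 6 higher in podocytes, and their part in the Rpl22 values was not tested.

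**Figure D1:**
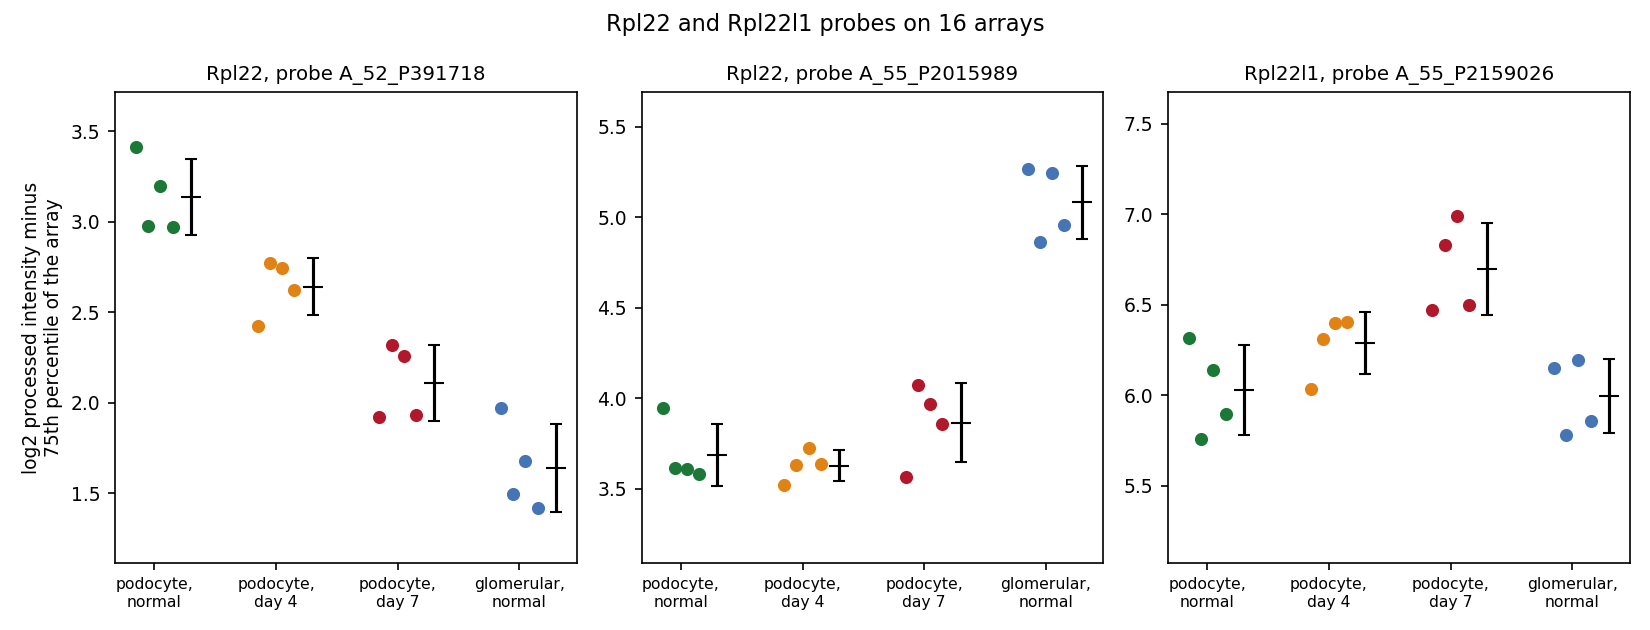
Level of each Rpl22 and Rpl22l1 probe on every array (log2 processed intensity relative to the array's 75th percentile), with points for arrays and bars for the mean and SD of each group of 4. Normal podocytes lie above glomerular RNA at A_52_P391718 and below it at A_55_P2015989, while at Rpl22l1 both share 1 range and the day 7 arrays lie above the normal ones.

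The replicate numbers pair podocyte with glomerular samples by how the arrays deviated, not by a label. Same-numbered arrays also lay side by side on slide 1, so a shared source and a shared position cannot be told apart. At each Rpl22 probe the difference kept its sign in all 4 pairs. Podocyte minus glomerular was 1.44, 1.48, 1.52 and 1.55 at A_52_P391718 and -1.32, -1.25, -1.63 and -1.37 at A_55_P2015989. The pairs thus spread over a narrower range than the groups at A_52_P391718. At Rpl22l1 the differences were 0.17, -0.02, -0.05 and 0.04, on both sides of 0.

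How unequally the Rpl22 probes moved was tested on the difference between them within an array, which a shift of the whole array cannot alter. The level of one probe cannot be read against that of another, so only the change of this difference between groups is informative. A_52_P391718 minus A_55_P2015989 was -0.53, -0.64, -0.42 and -0.62 in normal podocytes, against -3.30, -3.37, -3.57 and -3.54 in glomerular RNA. The groups lay far apart, at means of -0.55 ± 0.10 in podocytes and -3.44 ± 0.13 in glomerular RNA. The change was 2.89 ± 0.09 (log2, SE), a 7.42-fold shift between the probes, with a limma adjusted p of 4.82e-11 over all pairs.

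The same difference was fitted for all 5374 pairs of probes that share a gene, from 3758 genes. A pair was called in 18.9% of cases, and the median size of the change was 0.17. The Rpl22 pair ranked 75th by size, and 1.40% of pairs changed by at least as much. Pairs in which both probes were called in opposite directions numbered 98, or 1.82% of pairs, and were 64 of 4648, or 1.38%, among pairs annotated to the same accession, as those of Rpl22 are. Pairs whose probes moved apart by over 1 log2 unit each numbered 18, or 0.335%, at a limit chosen after the values were seen.

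**Figure D2:**
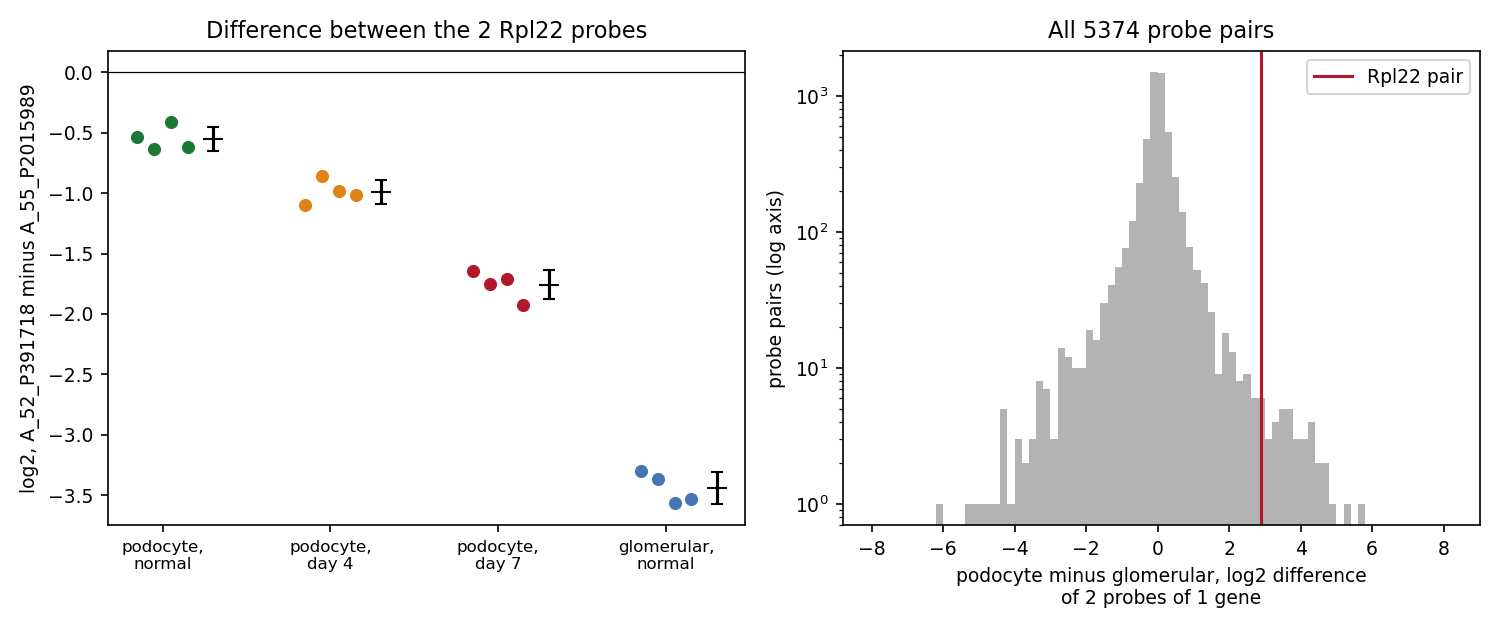
Difference between the Rpl22 probes on each array (A_52_P391718 minus A_55_P2015989, log2), beside the distribution of the podocyte minus glomerular change of this difference over all 5374 probe pairs of 1 gene. The difference goes down from normal podocytes through day 4 and day 7 to glomerular RNA without overlap, and the Rpl22 pair, at 2.89, lies in the tail of the pairs.

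After LMB2 the level at A_52_P391718 fell by day 4 and was lower still at day 7. It was 3.41, 2.98, 3.19 and 2.97 in normal podocytes, 2.42, 2.77, 2.74 and 2.62 at day 4, and 1.92, 2.32, 2.26 and 1.93 at day 7. Each group lay below the group before it, with means of 3.14 ± 0.21 in normal podocytes, 2.64 ± 0.16 at day 4 and 2.11 ± 0.21 at day 7 (SD, n = 4 each). Day 4 was 1.41-fold lower than normal (log2 -0.50 ± 0.15, limma adjusted p = 0.0199), and day 7 was 2.04-fold lower (log2 -1.03 ± 0.15, limma adjusted p = 4.05e-05). Day 7 was also 1.45-fold lower than day 4 (log2 -0.53 ± 0.15, limma adjusted p = 0.0160).

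The day 4 call at A_52_P391718 was close to the threshold. It was lost without replicate 1 of day 4, at -0.43 (limma adjusted p = 0.0605), without replicate 1 of normal podocytes, at -0.41 (limma adjusted p = 0.0664), and without the filter on dim probes (limma adjusted p = 0.0505). The call of day 7 against day 4 was lost without replicate 2 of day 4, at -0.49 (limma adjusted p = 0.0504). The call of day 7 against normal held under every alternative run, with the value nearest to 0, -0.43, where the signals of both Rpl22 probes were averaged (limma adjusted p = 0.0124).

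At A_55_P2015989 no change after LMB2 passed the test. The levels were 3.94, 3.62, 3.61 and 3.58 in normal podocytes, 3.52, 3.63, 3.73 and 3.64 at day 4, and 3.57, 4.07, 3.97 and 3.86 at day 7. The 3 groups overlapped, with means of 3.69 ± 0.17 in normal podocytes, 3.63 ± 0.09 at day 4 and 3.87 ± 0.22 at day 7. The log2 difference from normal was -0.06 ± 0.13 at day 4 (95% interval -0.34 to 0.22, limma adjusted p = 0.773) and 0.18 ± 0.13 at day 7 (-0.10 to 0.46, limma adjusted p = 0.272). Day 7 minus day 4 was 0.24 ± 0.13 (-0.04 to 0.52, limma adjusted p = 0.199). These values changed side with the scaling: at day 7 the difference from normal was 0.34 and called under quantile normalization (limma adjusted p = 0.0103), but -0.14 with the array median set to 0 (limma adjusted p = 0.500).

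Rpl22l1 was higher at day 7 than in normal podocytes. Its levels were 6.32, 5.76, 6.14 and 5.90 in normal podocytes, 6.04, 6.31, 6.40 and 6.41 at day 4, and 6.47, 6.83, 6.99 and 6.50 at day 7. Day 7 lay above both other podocyte groups, while day 4 overlapped with normal. The means were 6.03 ± 0.25 in normal podocytes, 6.29 ± 0.17 at day 4 and 6.70 ± 0.25 at day 7. Day 7 was 1.59-fold higher than normal (log2 0.67 ± 0.16, limma adjusted p = 0.00230). Day 4 minus normal was 0.26 ± 0.16 (95% interval -0.08 to 0.59, limma adjusted p = 0.236), and day 7 minus day 4 was 0.41 ± 0.16 (0.07 to 0.75, limma adjusted p = 0.0674), so neither passed.

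The Rpl22l1 call at day 7 depended on the scaling of the arrays. It was 0.66 under quantile normalization (limma adjusted p = 9.59e-05) and 0.44 when the arrays were scaled on ribosomal protein probes (limma adjusted p = 0.00119), but 0.35 and not called with the array median set to 0 (limma adjusted p = 0.124). That last scaling moved the median of all probes at day 7 to -0.40, against -0.08 under the percentile. Both scalings subtract a constant from each array, so the distance of Rpl22l1 from that median is the same in both by construction. It does not bear on the call.

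Of the 3 probes, 1 was called at day 4, lower, beside 29.8% of all probes tested, 13.5% higher and 16.4% lower. At day 7 there was 1 higher and 1 lower, beside 53.1% of all probes, 21.9% higher and 31.2% lower. In day 7 against day 4 it was 1 of 3, lower, beside 26.7%, 10.4% higher and 16.2% lower. These shares of members are near the background. Groups did not overlap at 1 probe of the 3 for day 4 against normal, beside 31.6% of all probes, at 2 for day 7 against normal, beside 46.0%, and at 2 for day 7 against day 4, beside 28.6%. Injury coincides here with slide, with scan and, as the mice are described, with the NEP25 transgene. The differences of day 4 and day 7 from normal therefore cannot be told apart from a difference in any of these. Day 7 and day 4 shared a slide, as did podocyte and glomerular RNA of uninjured mice. On their slide, day 4 filled row 2 and day 7 filled row 1. Uninjured podocytes were in columns 1 and 3 of theirs, and glomerular RNA in columns 2 and 4. Group and position on the slide therefore cannot be told apart in either comparison. The 2 differences from normal also share the same 4 normal arrays.

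The difference between the Rpl22 probes also changed after LMB2. It was -0.53, -0.64, -0.42 and -0.62 in normal podocytes, -1.10, -0.86, -0.99 and -1.02 at day 4, and -1.64, -1.76, -1.71 and -1.92 at day 7. The 3 groups were fully separated, with means of -0.55 ± 0.10 in normal podocytes, -0.99 ± 0.10 at day 4 and -1.76 ± 0.12 at day 7, and the glomerular mean of -3.44 lay further out. The change from normal was -0.44 ± 0.09 at day 4 (limma adjusted p = 0.00177) and -1.21 ± 0.09 at day 7 (limma adjusted p = 3.72e-07). Day 7 minus day 4 was -0.77 ± 0.09 (limma adjusted p = 1.26e-04), within 1 slide but between different rows of it.

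These changes of the pair were less unusual among genes than the podocyte and glomerular one. A change at least as large was found in 29.8% of the 5374 pairs at day 4, in 6.29% at day 7 against normal and in 5.94% for day 7 against day 4. Pairs were called in 28.2%, 40.0% and 6.83% of cases in these comparisons. The pair's call and direction were the same under every alternative run, in all 4 comparisons.

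The order of the groups was different for each probe. At A_52_P391718 it ran from normal podocytes, the highest, through day 4 and day 7 to glomerular RNA, and in that order only day 7 and glomerular RNA overlapped: 2 day 7 arrays, at 1.92 and 1.93, lay below 1 glomerular array, at 1.97. At A_55_P2015989 glomerular RNA stood above the 3 podocyte groups, whose neighbours in the order did not differ beyond their spread. At Rpl22l1 the order was day 7, day 4, normal podocytes and glomerular RNA. There, day 7 and day 4 did not overlap but missed the threshold, and the other neighbours overlapped.

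Podocyte markers, genes of the differentiated cell such as Nphs1 and Podxl, were lower in the same groups as A_52_P391718. At day 4, 4 of 6 were called lower with a median of -0.44, and at day 7, 5 of 6 with a median of -1.20. The A_52_P391718 changes beside these were -0.50 and -1.03. Over all probes 16.4% were called lower at day 4 and 31.2% at day 7. The mean level of 6 endothelial markers was 1.17 or less on every podocyte array. The mean of 6 mesangial and smooth muscle markers ran from 0.07 to 0.81 in normal podocytes, -0.24 to 0.34 at day 4, 0.66 to 1.29 at day 7 and 3.10 to 3.48 in glomerular RNA. At day 7, 1 of these 6 was called, Des, an intermediate filament protein, at 3.02 ± 0.16 (limma adjusted p = 2.69e-09), and the median difference of the list was 0.02. Proximal tubule markers varied more between arrays of a group, from 0.68 to 2.17, -0.20 to 2.83, -0.01 to 3.44 and 3.82 to 5.28 in the same order. The mean of 3 parietal epithelial markers ran from -2.11 to -1.57, -2.04 to -1.32, -0.92 to 0.42 and 0.33 to 0.81. The part of these markers in the Rpl22 values was not tested.

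The other cytosolic ribosomal proteins, which join Rpl22 in the ribosome, were set beside it from a list of 46 genes of the large subunit and 33 of the small one, of which 46 and 32 had a tested probe. Between podocyte and glomerular RNA, 3 were higher and 51 lower of 78, with a median of -0.47 against 0.32 for all probes. Over all probes 46.8% were higher and 25.0% lower. Each of the 78 is shown only by its tested probe of highest mean, which for Rpl22 would be A_55_P2015989. A_52_P391718 lay above all 78 and A_55_P2015989 below all 78. Their range was -1.35 at Rps19, a small subunit protein, to 1.13 at Rpl21, one of the large subunit. Rpl22l1 lay above 72 of them. The medians of the large and small subunit lists stayed below 0 under the scalings that do not use these genes. They ran from -0.55 and -0.83 with normexp and quantile normalization to -0.05 and -0.27 with the array median set to 0. In that last setting only 8 of the large and 9 of the small subunit were called lower. Scaling on ribosomal protein probes, at -0.04 and -0.27, centres each array on these same genes, so it cannot show their direction.

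After LMB2 most ribosomal protein genes did not pass the test. At day 4, 7 of 78 were higher and 1 lower with a median of 0.11, and at day 7, 24 were higher and 1 lower with a median of 0.22, beside medians of -0.08 for all probes at both times. Over all probes 13.5% were higher and 16.4% lower at day 4, and 21.9% higher and 31.2% lower at day 7. The direction of these medians depended on the scaling, since with the array median set to 0 they were -0.16 and -0.06 for the large subunit and -0.15 and -0.10 for the small subunit, at day 4 and day 7. The day 7 counts were then 0 higher and 7 lower for the large subunit and 1 higher and 3 lower for the small subunit. A_52_P391718 lay below all 78 at day 4 and below 77 at day 7, with Rpl21 the exception. Rpl22l1 lay above 61 of the 78 at day 4 and above 77 at day 7, the exception being Rps28, a small subunit protein, at 0.99 ± 0.17 (limma adjusted p = 1.97e-04).

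Rpl21 was the highest of the 78 for podocyte against glomerular RNA and the lowest at both times after LMB2. It was at 1.13 ± 0.14 for podocyte against glomerular RNA (limma adjusted p = 6.94e-06), -0.46 ± 0.14 at day 4 (limma adjusted p = 0.0261) and -1.06 ± 0.14 at day 7 (limma adjusted p = 2.69e-05). A further probe of Rpl21 had differences of 0.70, 0.06 and -0.32 in these comparisons, so the probes of that gene differed in size as well, and in sign at day 4.

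**Figure D3:**
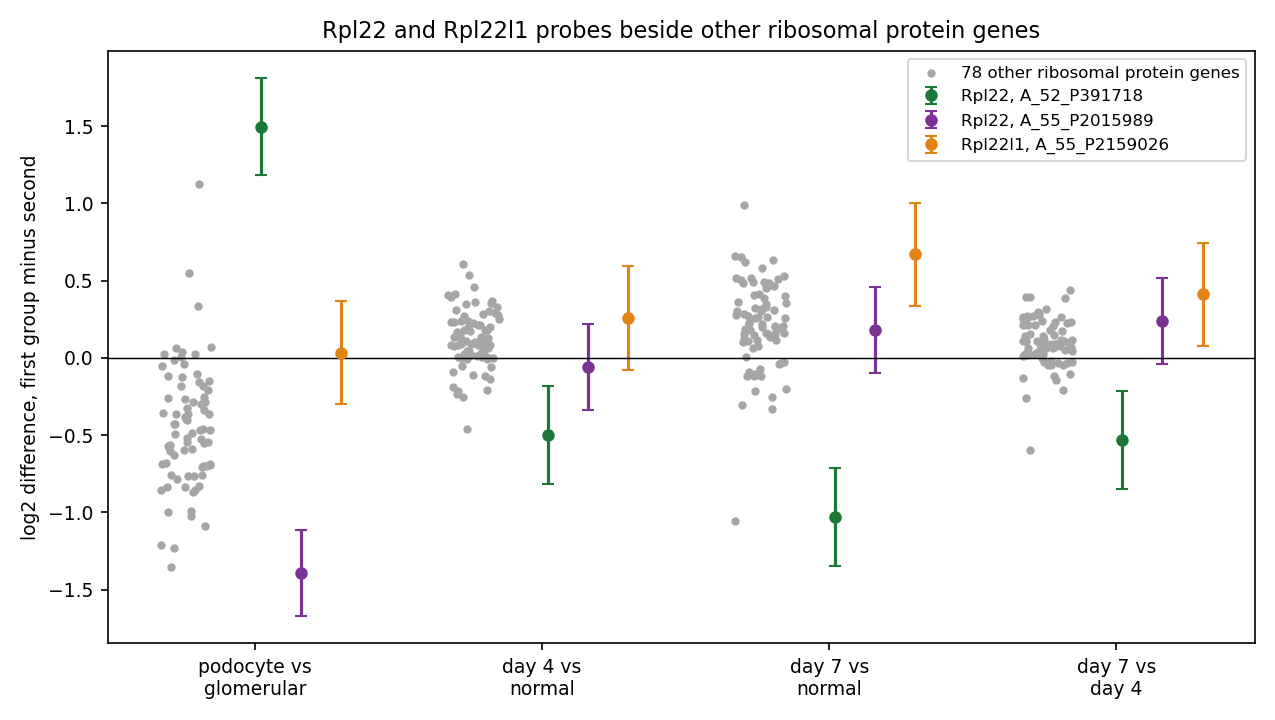
Log2 difference with its 95% interval for each Rpl22 and Rpl22l1 probe (coloured points) in each of the 4 comparisons, beside the differences of the 78 other ribosomal protein genes (grey points, spread sideways for view). A_52_P391718 lies above the grey points for podocyte against glomerular RNA, at 1.50, and near their lower end after LMB2, while A_55_P2015989 lies below them only in the first comparison, at -1.39.

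Other paralogs of ribosomal proteins, the class to which Rpl22l1 belongs, were listed as 9 genes, of which 7 had a probe and 5 a tested one. Rpl3l passed the filter only through glomerular RNA and was not well above background on any array of normal podocytes. Its direction in podocyte against glomerular RNA was thus fixed by the filter, and it is not counted in that comparison. Of the other 4, 3 were higher in podocyte than in glomerular RNA, beside 46.8% of all probes tested. Rps4l, a paralog of the small subunit protein Rps4x, was higher in podocyte than in glomerular RNA by 1.80 ± 0.29 (limma adjusted p = 5.33e-05). Rpl36al was higher by 0.74 ± 0.13 and Rpl7l1 by 0.49 ± 0.10, and Rps27l, at 0.13, did not pass. The counts after LMB2 include Rpl3l, which was not well above background on any array of day 4 either. At day 4 Rpl7l1 was called lower, at -0.32 ± 0.10 (limma adjusted p = 0.0338), with the other 4 not called. Over all probes 29.8% were called at day 4 and 53.1% at day 7. At day 7, 0 of the 5 were called, but this depended on the scaling: 2 were higher under quantile normalization and 2 lower with the array median set to 0.

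Genes whose RNA or product has been tied to Rpl22 were the next group. In zebrafish, Rpl22 and Rpl22l1 act against each other on Smad1 translation and on Smad2 splicing, in which the splicing factor Hnrnpa1 takes part. In human cancer cells the paralogs bear on splicing of MDM4, an inhibitor of p53. Of 5 listed genes 4 had a tested probe. In podocyte against glomerular RNA 2 were higher and 2 lower with a median of 0.06. At day 4 there was 1 in each direction, and at day 7, 0 were higher and 2 lower. Over all probes the shares higher and lower were 46.8% and 25.0%, then 13.5% and 16.4%, then 21.9% and 31.2%. Smad2 was higher in podocyte than in glomerular RNA by 1.05 ± 0.10 (limma adjusted p = 2.04e-07) and was lower at day 7, at -0.35 ± 0.10 (limma adjusted p = 0.00627). Smad1 was lower at its probe with the higher mean signal, at -0.74 ± 0.18 in podocytes against glomerular RNA, -0.88 ± 0.18 at day 4 and -0.78 ± 0.18 at day 7. Its other probe, with the lower mean signal, had differences of -1.09, 0.70 and 0.36, for which no p is given, so the direction after LMB2 differed between Smad1 probes. Mdm4 was higher at day 4 by 0.52 ± 0.13 (limma adjusted p = 0.00651), a call lost with the array median set to 0 and with scaling on ribosomal protein probes, and was at 0.08 at day 7. Hnrnpa1 was at 0.15 at day 4 and 0.21 at day 7, neither called. A further probe of it, well above background on 16 of 16 arrays, was at 0.46 and 0.51, for which no p is given. The counts above rest on 1 probe per gene. The arrays measured abundance at a probe, not splicing.

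Free ribosomal proteins can stabilise p53, mainly through the 5S particle of Rpl5, Rpl11 and its RNA binding the p53 ligase Mdm2, and this branch of the nucleolar stress response was listed as 8 genes, all of them tested. In podocyte against glomerular RNA 4 were higher and 2 lower, near the shares over all probes, 46.8% and 25.0%. The larger of the 2 lower differences was at Cdkn1a, the p53 target that encodes p21 (-3.68 ± 0.50). Over all probes 13.5% were higher and 16.4% lower at day 4, and 21.9% and 31.2% at day 7. At day 4, 2 were higher, Cdkn1a by 4.38 ± 0.50 (limma adjusted p = 1.16e-05) and Mdm2 by 0.55 ± 0.09 (limma adjusted p = 4.99e-04). At day 7, 3 were higher and 2 lower, with Cdkn1a at 4.96 ± 0.50, Trp53 itself at 0.75 ± 0.19, Mdm2 at 0.39 ± 0.09 and the nucleolar protein Nop53 at -0.88 ± 0.14. A further probe of Cdkn1a was well above background on only 10 of 16 arrays. Its differences were -3.74 for podocyte against glomerular RNA, 0.99 at day 4 and 1.90 at day 7, for which no p is given. The Cdkn1a rise after LMB2 thus had the same direction at both probes but was much smaller at this one. Rpl5 was at 0.03 and -0.12 and Rpl11 at 0.04 and 0.26 at day 4 and day 7, none of them called. With the array median set to 0 the Mdm2 calls at day 4 and day 7 were lost, at 0.28 and 0.07, and so was that of Trp53 at day 7, at 0.43 (limma adjusted p = 0.0521). The day 7 counts were then 1 higher and 4 lower, and 2 higher and 4 lower when scaled on ribosomal protein probes.

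The genes most like each probe in level were found by Pearson's r over the 16 arrays among all named genes, given as a description, since the arrays share groups and scaling. Closest to A_52_P391718 were Snu13, a protein that binds spliceosomal and nucleolar RNAs (r = 0.987), Ganab, a glucosidase subunit of the endoplasmic reticulum (r = 0.986), and Alkbh7 (r = 0.984). Over the 12 podocyte arrays alone Snu13 stayed first, at 0.988. Closest to A_55_P2015989 were B4galt4 (r = 0.981), Rplp1, an acidic protein of the ribosomal stalk (r = 0.979), and Bin1 (r = 0.978), but over the 12 podocyte arrays the first was Comtd1, at 0.968. Closest to Rpl22l1 was Gm15421, a transcribed pseudogene on chromosome 5, with r = 0.997 over both sets of arrays. Its differences were 0.04 for podocyte against glomerular RNA, 0.28 at day 4 and 0.74 at day 7. Whether the Gm15421 probe and the Rpl22l1 probe bind the same RNA was not examined. The next were Rpl10a, of the large subunit (r = 0.955), and Pfn1, an actin-binding protein (r = 0.940).

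Between the members themselves, r over the 16 arrays was -0.69 for the 2 Rpl22 probes, 0.04 for A_52_P391718 with Rpl22l1 and -0.22 for A_55_P2015989 with Rpl22l1. Over the 12 podocyte arrays these values were -0.13, -0.55 and 0.74. Over the podocyte arrays, r with Rpl22l1 thus had a different sign for each Rpl22 probe. These arrays pool the podocyte groups and share the scaling, so r also holds the group differences given above. It was not tested.

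**Figure D4:**
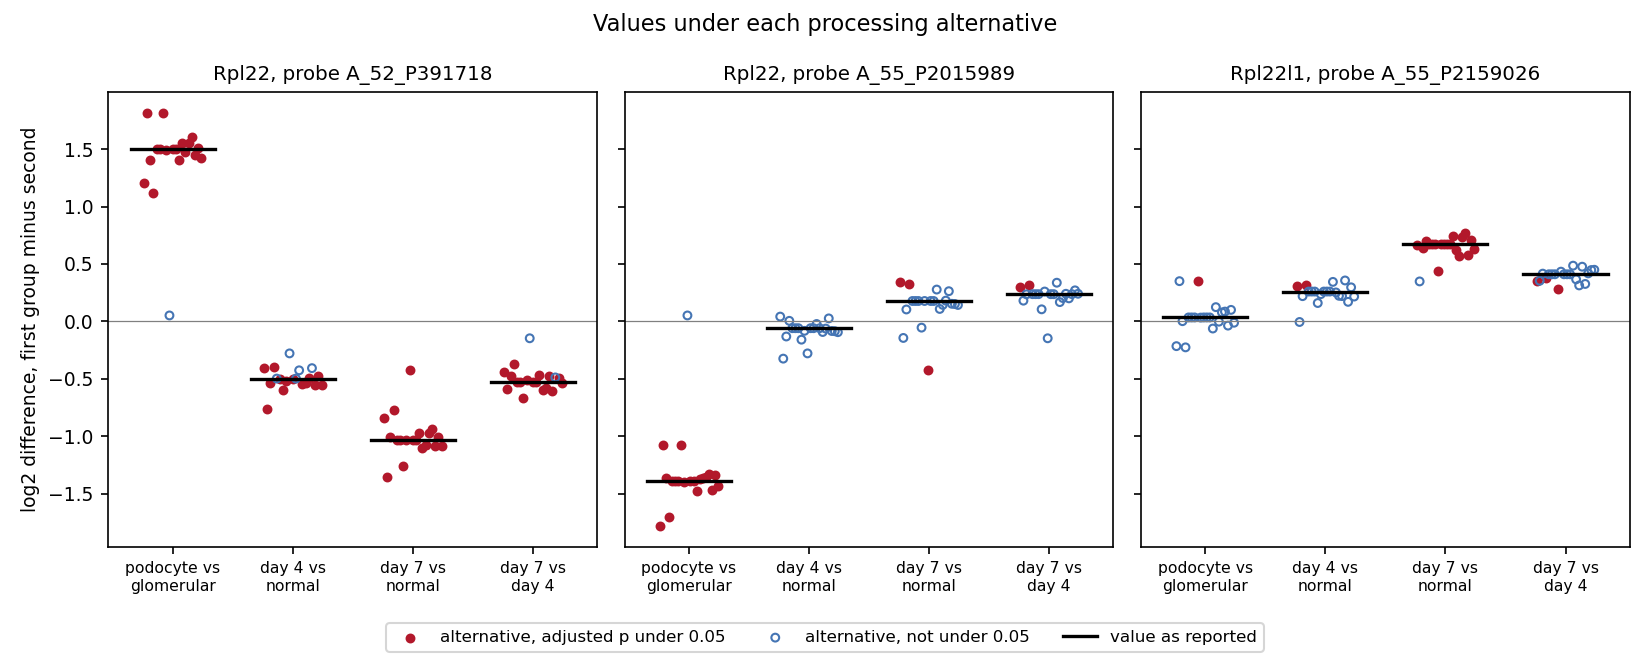
Log2 difference of each probe in each comparison under the percentile scaling and under the alternatives run, including leaving out each array. The values of A_52_P391718 keep their side of 0, and the podocyte against glomerular value of A_55_P2015989 does so except where both Rpl22 probes were averaged, at 0.05. Several values that were not called cross 0 under other settings.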

How the data were processed

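Each of the 16 arrays was a 1-colour Agilent array read with Agilent Feature Extraction 11.5.1.1, per the file headers and the submitters' processing notes. The deposited scanner files hold a processed intensity per spot on a linear scale, which that program had background-subtracted, and flags for spots well above background, saturated or outlying; the authors had not scaled these files between arrays. The authors' deposited value table holds log2 values of 39430 probes that are exact shifts of the log2 processed intensity, with medians from -3.17 to -2.51 and a normalization not given in the sources used here. In 6 of its 16 columns the values were those of a different replicate within the group, so the scanner files' own labels were used.

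After control spots and outliers were removed, log2 values were averaged per probe (Python 3.11.15). Each array's 75th percentile was subtracted. Accessions were matched without versions to the RefSeq gene table of GRCm38.p6, which named 26582 probes with 1 gene and left 29099 unnamed; other genes are shown by the tested probe of highest mean. A set of 106 probes lacked a value on some array; 29685 others, clearly above background throughout some group, were fitted on group alone with lmFit and eBayes of limma 3.58.1 (R 4.3.3), leaving 12 residual degrees of freedom. A probe was called at a Benjamini-Hochberg adjusted p under 0.05 over these probes. Differences between probes of a gene were fitted in the same way over 5374 pairs. The fit of single probes was tested on simulated data for day 4 against normal.

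Same-numbered podocyte and glomerular samples of uninjured mice deviated together (r = 0.53, 0.36, 0.44 and 0.45). This pairs them by the data, since the labels name no shared animal, but they also lay side by side on the slide. The numbers did not pair the other groups. Alternatives were other normalizations, background correction and filters, the authors' table, averaged probes, the replicate number as a block, and each array left out. The members and gene lists were chosen with earlier results of these data known. Named genes are the members, the extremes and described genes of the lists, and the genes most like each member by correlation. The number of arrays limits the precision.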

Additional observations from a re-analysis of the deposited data

Results flagged for a closer look

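At A_55_P2015989 replicate 1 of the normal podocytes, at a level of 3.94, stood apart from the other 3 arrays of its group, which lay between 3.58 and 3.62, by more of the group's range than Dixon's 95% limit for 4 samples allows. Chance puts about 1 group in 20 past that limit. Without that array the day 4 difference from normal at this probe was 0.03 in place of -0.06, and neither was called.

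The change from normal at A_52_P391718 differed between day 7 and day 4 by -0.53, and that of the difference between the Rpl22 probes by -0.77, both tested directly as day 7 against day 4.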

How the results depend on the processing

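The call and direction of the difference between the Rpl22 probes were the same under every alternative run for it, though setting the array median to 0 could not alter it. The A_52_P391718 call for day 7 against normal was also the same under every alternative run. Under quantile normalization, without and with normexp background correction, Rpl22l1 was at -0.22 and -0.23 for podocyte against glomerular RNA, a change of sign, at 0.31 and 0.32 for day 4, both called, and at 0.35 and 0.38 for day 7 against day 4, both called. Under these 2 settings A_55_P2015989 was at 0.041 and 0.0046 for day 4, a change of sign, at 0.34 and 0.32 for day 7, called, and at 0.30 and 0.32 for day 7 against day 4, called. With the array median set to 0, Rpl22l1 was at -0.0055 for day 4 and 0.35, not called, for day 7, and A_55_P2015989 was at -0.14 for day 7. Scaled on 159 ribosomal protein probes, Rpl22l1 was at 0.35 for podocyte against glomerular RNA and 0.28 for day 7 against day 4, both called, and A_55_P2015989 was at -0.055 for day 7. Averaging both Rpl22 probes gave 0.051, -0.28, -0.43 and -0.15 in the 4 comparisons, and only the day 7 value against normal was called. Without the filter on dim probes the A_52_P391718 value at day 4, -0.50, was not called, with 55575 probes tested. With the replicate number as a block it was also -0.50 and not called (limma adjusted p = 0.102); these numbers do not pair the groups after LMB2, and the block changed no other call of a member. The cause of these changes was not tested.

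Leaving out each array gave -0.062 to 0.12 for Rpl22l1 in podocyte against glomerular RNA (below 0 without replicate 1 or 3 of normal podocytes or replicate 2 or 4 of glomerular RNA), -0.55 to -0.41 for A_52_P391718 and -0.094 to 0.026 for A_55_P2015989 at day 4, and -0.60 to -0.47 for A_52_P391718 in day 7 against day 4. The slide could not be fitted as a block with the injury, which it matches, and is constant within the other comparisons. In those the row or column on the slide matches the group, so position could not be fitted either.

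Over all probes, 4001 were higher and 4857 lower at day 4, 6494 and 9255 at day 7, 3100 and 4822 in day 7 against day 4, and 13896 and 7416 in podocyte against glomerular RNA. With the array median set to 0 they were 2611 and 10189, 3914 and 13657, 2377 and 4120, and 17379 and 5903. Scaled on ribosomal protein probes they were 4155 and 11892 at day 7, 1888 and 5899 in day 7 against day 4, and 17161 and 5753 in podocyte against glomerular RNA. With the block they were 2812 and 1936 at day 4 and 1858 and 2417 in day 7 against day 4. With 1 probe for each of 14564 genes they were 1799 and 2899 at day 4, 3151 and 5349 at day 7, 1928 and 3021 in day 7 against day 4, and 7511 and 4006 in podocyte against glomerular RNA.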
